A study of Homo sapiens with 8 samples.

Results

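The translation initiation and elongation factor genes were taken by name from the 16295 genes listed for MM1.S cells. Every gene whose symbol begins with EIF or EEF was kept, except the eIF2 kinases EIF2AK1 to EIF2AK4, the eIF2 alpha subunit gene EIF2S1 and pseudogenes. That rule left 61 names, of which 59 are genes of factors, of the EIF4EBP inhibitors or of proteins that carry the symbol but act on or beside the factors, such as EEF2K, EEF2KMT and EEF1E1, and 2 are antisense transcripts (EIF1B-AS1 and EIF3J-AS1). MM1.S is a human multiple myeloma line, that is, a tumour of plasma cells. RNA was sequenced after 24 h with MS177, MS177N1 or C24, each at 0.5 µM, or with the solvent DMSO, with 2 libraries in each of the 4 groups. As background, C24 is an inhibitor of the histone methyltransferase EZH2, MS177 is the degrader of EZH2 built on it, and MS177N1 is a related control compound that does not degrade EZH2. All 8 libraries therefore came from the same line, and the labels do not say whether the 2 libraries of a group came from separate cultures, so the p-values measure the spread between these libraries, which may be technical.

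Translation begins when eIF2 brings the initiator tRNA to the small ribosomal subunit and eIF2B recharges eIF2 with GTP. The cap-binding eIF4 complex joins mRNA to that subunit through the large scaffold eIF3, eIF1 and eIF1A guard the choice of start codon, and the eEF proteins then add amino acids. Plasma cells secrete antibody and depend on a high rate of protein synthesis, and the 4E-BP proteins, which hold the cap-binding protein eIF4E away from its partners until the kinase mTOR phosphorylates them, are a brake on it.

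Depth ranged from 20000665 to 26619099 reads in listed genes per library, and values are given as normalised reads, the reads divided by the library's size factor. The markers of the labelled line were present, since 7 of 7 plasma cell markers were listed. Summed, they came to 76043 to 76433 normalised reads in MS177, 93635 to 95119 in MS177N1, 90602 to 91913 in C24 and 96419 to 97918 in DMSO. The sum was thus lower in the MS177 libraries, mostly through SDC1, the plasma cell surface proteoglycan CD138, at 12278 to 12569 normalised reads in MS177 and 28445 to 29160 in DMSO. TNFRSF17 was lower too, with 1951 to 2070 in MS177 and 4074.5 to 4217.6 in DMSO. So was IRF4, with 13812 to 14120 in MS177 and 16460 to 17070 in DMSO. PRDM1 had 4878 to 5444 in MS177 and 6079 to 6251 in DMSO, and SLAMF7 7135 to 7346 and 8163 to 8449. The markers did not all go that way. XBP1, the secretory transcription factor, had 33576 to 34814 in MS177 and 31433 to 31974 in DMSO. CD38 overlapped, with 1155 to 1328 in MS177 and 1224 to 1337 in DMSO. The part of these differences in the factor results was not tested. Of the B cell markers 0 of 3 were listed. CD3E, the T cell marker listed of 2, had 29.9 to 33.2 normalised reads in MS177 and 61.5 to 75.9 in DMSO, and CD14, the monocyte marker listed of 2, had 9.64 to 10.3 in MS177 and 7.70 to 9.61 in DMSO. Because these are bulk libraries, fewer cells of a type and less RNA per cell cannot be told apart.

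MS177 changed many of the factor transcripts, most of them by a small amount. The share that passed the test was 58.6%, beside 57.9% of all genes tested. More were lower than higher, 25 and 9, but only 19 and 18 when libraries were scaled to their total reads. Among all genes tested 4110 were lower and 4097 higher, and 3443 and 4761 with that scaling. EIF4EBP1, the 4E-BP1 inhibitor of eIF4E, had the largest rise that passed the test, by 1.93-fold. EIF1 and EIF2S2 followed, at 1.65-fold and 1.47-fold. The largest falls were those of EIF5A2, EEF1E1 and EEF1A1. Of the 12 eIF4 genes tested 8 were also lower, where 29.0% of all genes tested were. EEF2, the translocation factor, and 7 of the 14 eIF3 genes did not pass the test, nor did 5957 of all 14164 genes tested.

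Of the 61 genes, 58 had enough reads to be tested. The others were EEF1A2 with 7 reads in all libraries together, EIF2S3L with 41 and EIF1B-AS1 with 18. With limma and Benjamini-Hochberg adjustment over all 14164 genes tested, 34 of the 58 differed between MS177 and DMSO at an adjusted p under 0.05, which is 58.6% of them against 57.9% of all genes tested. The overall share called was thus near the background. In direction, 9 were higher, which is 15.5% against a background of 28.9%, and 25 were lower, which is 43.1% against a background of 29.0%. When libraries were scaled to their total reads in place of the size factors, the split became 18 higher and 19 lower, against 4761 higher and 3443 lower among all genes. Of the 34 called genes, 28 were called under both scalings.

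The sizes were modest. The median log2 fold change of the 58 genes was -0.06, beside 0.00 for all genes tested. Among the 34 called genes 18 moved by less than 1.25-fold, 5 by at least 1.5-fold and only EIF5A2 by at least 2-fold, whereas calls of that size were made upward for 9.63% and downward for 4.56% of all genes tested. In 40 of the 58 genes (69.0%) both MS177 libraries lay outside the range of the other 6 libraries, as they did for 64.9% of all genes tested.

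**Figure D1:**
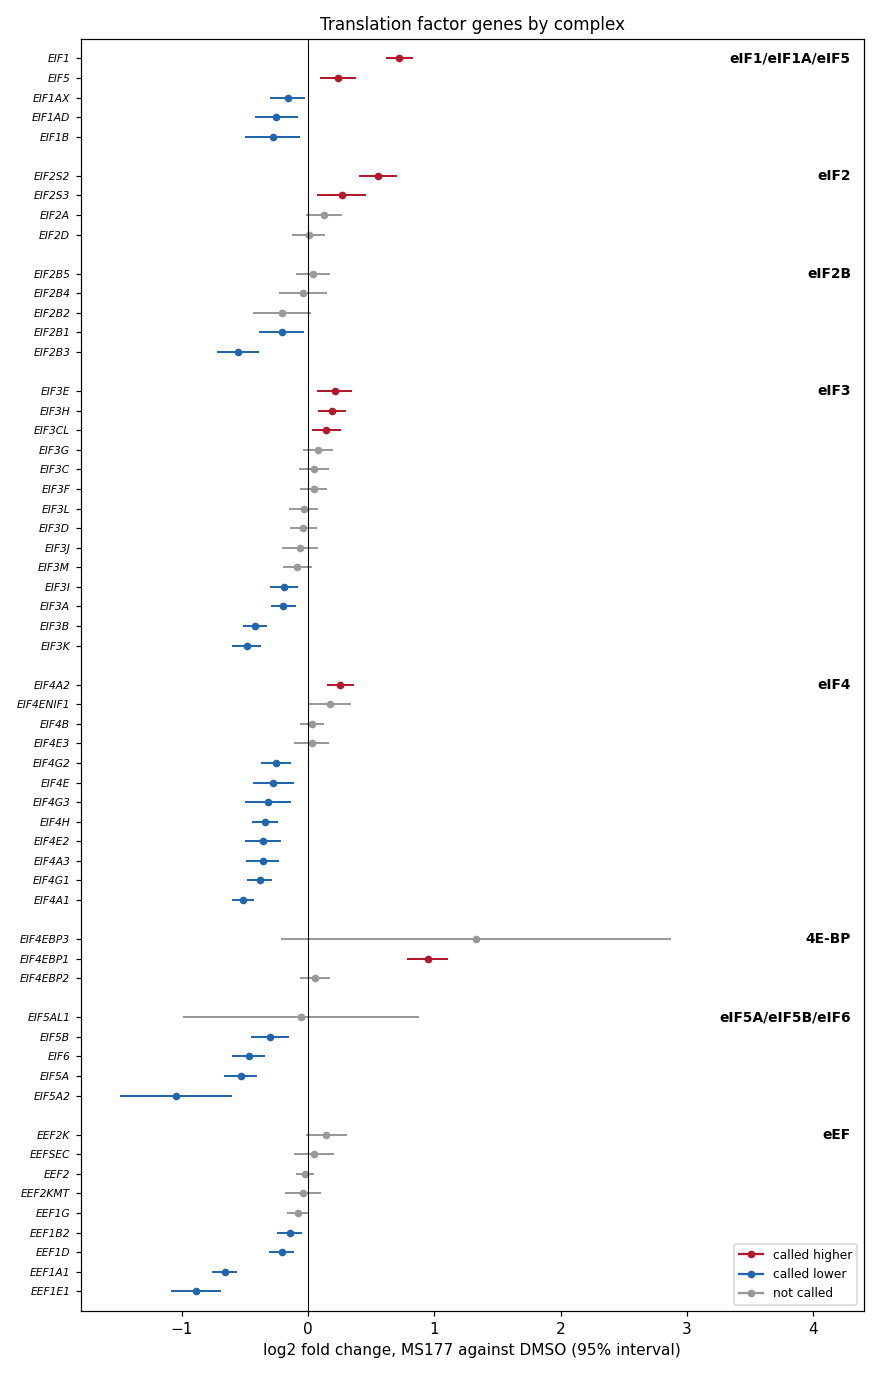
Log2 fold change of 57 translation factor genes in MS177 against DMSO (horizontal axis), grouped by complex and ordered within it, with the 95% interval of the fit as a bar. EIF4EBP1 at 0.95 and EIF1 at 0.72 stand farthest right of the genes called higher, the eIF4 and eIF5A groups lie mostly left of 0, and the wide bars belong to genes with few reads such as EIF4EBP3 and EIF5AL1.

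The 3 inhibitors of eIF4E did not move alike. EIF4EBP1 had 4603 and 3969 normalised reads in the MS177 libraries, 2204 and 2045 in the MS177N1 libraries, 2197 and 2177 in the C24 libraries, and 2330 and 2105 in the DMSO libraries. Both MS177 libraries stood well above the other 6, which lay close together. Its log2 fold change in MS177 against DMSO was 0.95 (SE 0.07, limma adjusted p = 2.33e-08), and it was 1.01 against MS177N1 and 0.97 against C24. EIF4EBP2, the paralog with the same eIF4E-binding motif, had 3696 and 3908 normalised reads with MS177, 3734 and 3795 with MS177N1, 3967 and 3723 with C24, and 3623 and 3711 with DMSO. Its groups overlapped and its log2 fold change was 0.05 (SE 0.05, limma adjusted p = 0.420). EIF4EBP3, the third family member, was close to the limit of detection, with 13.9 and 27.1 normalised reads in MS177, 16.8 and 2.73 in MS177N1, 5.14 and 6.64 in C24, and 8.80 and 5.77 in DMSO. An MS177N1 library fell between the MS177 libraries, and the log2 fold change of 1.33 (SE 0.72, limma adjusted p = 0.129) did not pass the test at this depth.

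The start codon group split by direction, with 2 of 5 genes higher (background 28.9%) and 3 lower (background 29.0%). EIF1, which keeps the scanning ribosome from settling on poor start codons, had 19735 and 18093 normalised reads in MS177, 11020 and 10870 in MS177N1, 11819 and 11373 in C24, and 11688 and 11214 in DMSO. The MS177 libraries were again apart from all others, with a log2 fold change of 0.72 (SE 0.05, limma adjusted p = 3.41e-09) against DMSO. EIF5, which prompts eIF2 to hydrolyse its GTP at the start codon, was called higher with a log2 fold change of 0.24, or 0.14 with a trend over transcript length and GC content removed.

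EIF1B, the close paralog of EIF1, went the other way. It had 358 and 362 normalised reads in MS177, 468 and 417 in MS177N1, 448 and 442 in C24, and 428 and 446 in DMSO. The MS177 libraries were the lowest, by a margin similar to the spread of the MS177N1 pair, and the log2 fold change was -0.28 (SE 0.10, limma adjusted p = 0.0233). This call was lost without either MS177 library or without DMSO replicate 2, with adjusted p of 0.0625, 0.0503 and 0.0979. EIF1AX, the gene of eIF1A, was called at -0.16 and EIF1AD, an eIF1A-domain protein, at -0.25. Without MS177 replicate 1 these became -0.06 (limma adjusted p = 0.373) and -0.17 (limma adjusted p = 0.104). The EIF1AX call was also lost in every other omission of a library except that of MS177 replicate 2. Under total-read scaling 0 of the 5 genes were called lower, and the EIF1 and EIF5 calls remained. Among all genes tested that scaling gave 4761 higher and 3443 lower.

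For eIF2, 2 of the 4 genes tested were higher (background 28.9%) and 0 lower (background 29.0%), with a median log2 fold change of 0.20. EIF2S2, the beta subunit, had 8380 and 7754 normalised reads in MS177, 5482 and 5646 in MS177N1, 5409 and 5832 in C24, and 5919 and 5088 in DMSO. The MS177 libraries exceeded every other library, and the log2 fold change was 0.55 (SE 0.07, limma adjusted p = 6.59e-06). EIF2S3, the GTP-binding gamma subunit, was called at 0.27, but at 0.14 (limma adjusted p = 0.0717) without MS177 replicate 2 and at 0.17 (limma adjusted p = 0.110) without DMSO replicate 1. EIF2A and EIF2D, which deliver tRNA to ribosomes without being eIF2 subunits, had log2 fold changes of 0.13 and 0.01 and were not called.

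The exchange factor eIF2B had 0 of 5 subunits higher (background 28.9%) and 2 lower (background 29.0%). EIF2B3, the gamma subunit of the catalytic part, had 678 and 685 normalised reads in MS177, 1013 and 961 in MS177N1, 1063 and 988 in C24, and 994 and 1009 in DMSO. The MS177 pair agreed closely and lay below the other 6 libraries, with a log2 fold change of -0.55 (SE 0.07, limma adjusted p = 8.82e-06). EIF2B5, its catalytic partner epsilon, was at 0.04 and EIF2B4, the delta subunit, at -0.04. EIF2B1 and EIF2B2, the alpha and beta subunits, were both at -0.21. The EIF2B1 call was lost without MS177 replicate 2 (log2 fold change -0.12, limma adjusted p = 0.282) and in every other omission of a library except MS177 replicate 1, and EIF2B2, not called in the reported fit, was called without DMSO replicate 2 (log2 fold change -0.31, limma adjusted p = 0.0411) and with the length and GC trend removed (-0.24, limma adjusted p = 0.0459).

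**Figure D2:**
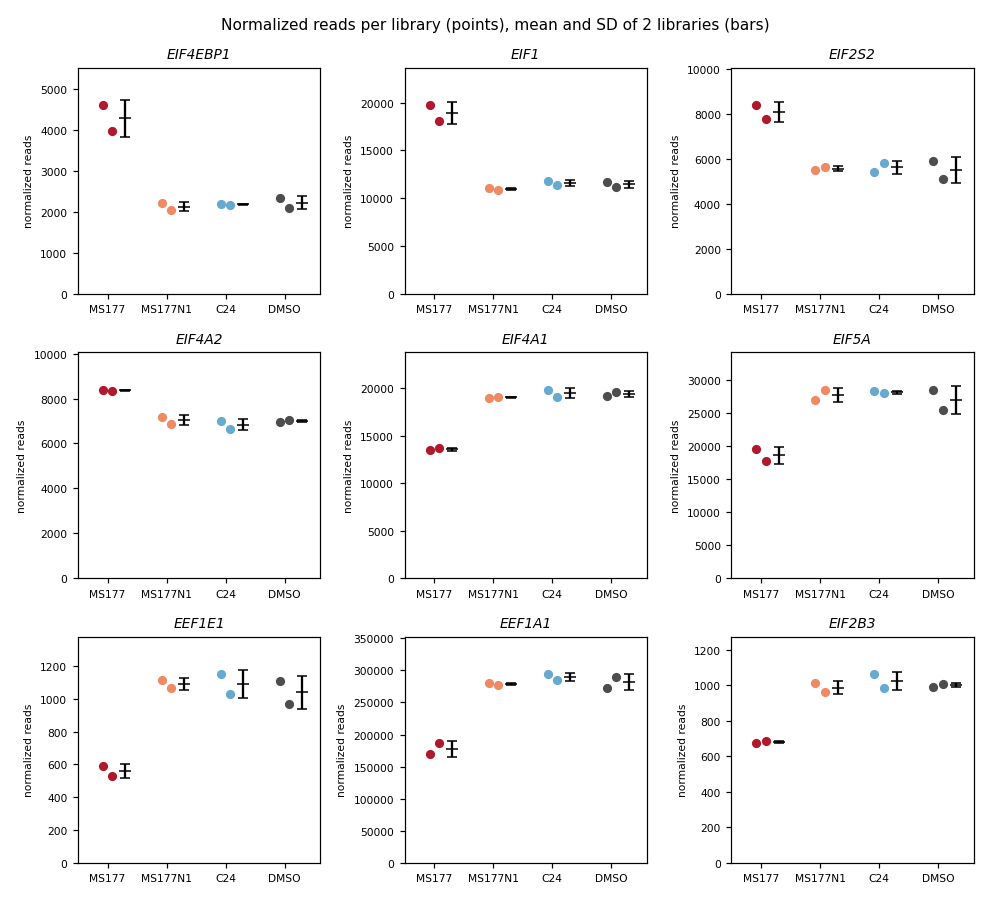
Normalised reads (vertical axes, from 0) of 9 translation factor genes in each library, with the mean and SD of the 2 libraries of a group beside the points. In each panel the MS177 points, on the left, are separated from the MS177N1, C24 and DMSO points: above them for EIF4EBP1, EIF1, EIF2S2 and EIF4A2, below them for EIF4A1, EIF5A, EEF1E1, EEF1A1 and EIF2B3.

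Within eIF3, 7 of 14 genes were called (background 57.9%), 3 higher (background 28.9%) and 4 lower (background 29.0%). The share called was thus not above that of all genes tested, and the median log2 fold change was -0.04. EIF3K, a small peripheral subunit, had 3132 and 2976 normalised reads in MS177, 3913 and 4121 in MS177N1, 4179 and 4291 in C24, and 4247 and 4303 in DMSO. The MS177 libraries were the lowest of the 8, and the log2 fold change was -0.49 (SE 0.05, limma adjusted p = 7.04e-07). It was -0.29 once a trend over transcript length and GC content was removed. EIF3B at -0.42 and EIF3A at -0.20, the subunits around which the complex assembles, and EIF3I at -0.19 were also lower. The EIF3I call was lost under total-read scaling (-0.11, limma adjusted p = 0.0839) and with the length and GC trend removed (-0.02, limma adjusted p = 0.753).

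EIF3E, a subunit of the outer module, was higher, with 3525 and 3927 normalised reads in MS177, 2926 and 3009 in MS177N1, 3219 and 3187 in C24, and 3063 and 3362 in DMSO. Both MS177 libraries were above the other 6, but MS177 replicate 1 lay close to DMSO replicate 2, and the log2 fold change of 0.21 (SE 0.06, limma adjusted p = 0.00737) lost its call without MS177 replicate 2 (0.14, limma adjusted p = 0.0689) or without DMSO replicate 1 (0.15, limma adjusted p = 0.104). EIF3H, its neighbour in the complex, was called at 0.19 and EIF3CL at 0.14. EIF3CL is a near-identical copy of EIF3C, so that reads could be split between them. Summed, the pair averaged 14711 normalised reads in MS177 and 13785 in DMSO, and the EIF3CL call was lost without MS177 replicate 2 (0.12, limma adjusted p = 0.0701) or without DMSO replicate 2 (0.08, limma adjusted p = 0.240). EIF3C, EIF3D, EIF3F, EIF3G, EIF3J, EIF3L and EIF3M lay between -0.08 and 0.08 in the reported fit. With the length and GC trend removed EIF3G was called at 0.252 (limma adjusted p = 4.15e-05) and EIF3M at -0.209 (limma adjusted p = 0.00072). EIF3C, EIF3F and EIF3G were called higher under total-read scaling. Under total-read scaling 6 eIF3 genes were called higher and 3 lower, beside 4761 higher and 3443 lower among all genes tested. The median of the eIF3 genes was then 0.05.

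In the eIF4 group 8 of 12 genes were lower (background 29.0%) and 1 higher (background 28.9%), with a median log2 fold change of -0.30. Under total-read scaling 8 were lower and 3 higher, beside 3443 lower and 4761 higher among all genes tested. EIF4A1, the main RNA helicase of the complex, had 13482 and 13682 normalised reads in MS177, 18995 and 19063 in MS177N1, 19837 and 19105 in C24, and 19211 and 19626 in DMSO. The replicates differed little in any group, and the MS177 pair was far below the rest, with a log2 fold change of -0.52 (SE 0.04, limma adjusted p = 1.56e-08). Its paralog EIF4A2 had 8387 and 8352 normalised reads in MS177, 7182 and 6874 in MS177N1, 6997 and 6653 in C24, and 6974 and 7039 in DMSO. The MS177 pair was the highest, and the log2 fold change was 0.26 (SE 0.05, limma adjusted p = 0.000162), or 0.14 with the length and GC trend removed.

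Most of the other eIF4 genes were lower. EIF4G1, the scaffold that links eIF4E, eIF4A and eIF3, was at -0.38, its paralog EIF4G3 at -0.32, and EIF4G2, a relative without the eIF4E-binding site, at -0.25. EIF4E itself, the cap-binding protein, had 1410 and 1650 normalised reads in MS177, 1917 and 1880 in MS177N1, 2075 and 1923 in C24, and 1793 and 1899 in DMSO. Its MS177 libraries were the lowest, and replicate 1 was lower than replicate 2. The log2 fold change of -0.27 (SE 0.07, limma adjusted p = 0.00470) was -0.16 (limma adjusted p = 0.0567) without MS177 replicate 1. EIF4E2, a cap-binding repressor, was at -0.36, the helicase cofactor EIF4H at -0.34 and EIF4A3, a helicase of the exon junction complex, at -0.36. Not called were EIF4B, the other helicase cofactor, at 0.03, EIF4E3 at 0.03 and EIF4ENIF1, the eIF4E transporter, at 0.17.

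Promoter sequence was looked at for the eIF4 genes because EIF4E is a textbook target of MYC, which binds the E-box CACGTG. RefSeq promoters (GRCh38.p14, 250 bases before to 50 after the gene start) were matched by symbol for 47 of the 58 tested genes. These were 4 of the 9 called higher, 23 of the 25 called lower and 20 of the 24 not called. Most genes called higher were therefore not looked at. CACGTG reads the same on both strands. Of the matched genes, 8 of the 23 called lower held it, 0 of the 4 called higher and 5 of the 20 not called. It was in 7.26% of 35116 RefSeq promoters and in the promoters of 12.9% of 9763 tested genes that had a match. The 4 eIF4 genes called lower that hold it are shown with EIF4B, which holds it and was not called. The 30-base windows are written 5′ to 3′ on the gene's strand, and the capitals mark the E-box:
EIF4E (chr4:98929341-98929370, minus strand): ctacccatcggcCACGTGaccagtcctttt
EIF4G1 (chr3:184314450-184314479, plus strand): ggctgtggctgtCACGTGacggggcggggg
EIF4H (chr7:74174145-74174174, plus strand): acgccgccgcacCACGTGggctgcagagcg
EIF4A3 (chr17:80147232-80147261, minus strand): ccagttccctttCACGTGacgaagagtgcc
EIF4B (chr12:53006422-53006451, plus strand): gcccgctataatCACGTGattgcctcatcc
The E-box lay 225 bases before the start in EIF4E, 199 in EIF4H, 144 in EIF4G1 (at 1 of its 3 listed starts), 121 in EIF4A3 and 22 in EIF4B. A match describes letters only; binding of any factor was not measured. The other lower genes with a match were EIF1B, EIF2B3, EIF3K and EIF5A2. The cAMP and ATF site TGACGTCA was in EEF2 alone of the 47 genes. It was in 1.85% of all promoters and in 3.75% of tested genes with a match. The amino acid response letters TGATGNAA, searched on both strands, were in EIF4E3 alone. They were in 3.62% of all promoters and in 2.68% of tested genes with a match.

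**Figure D3:**
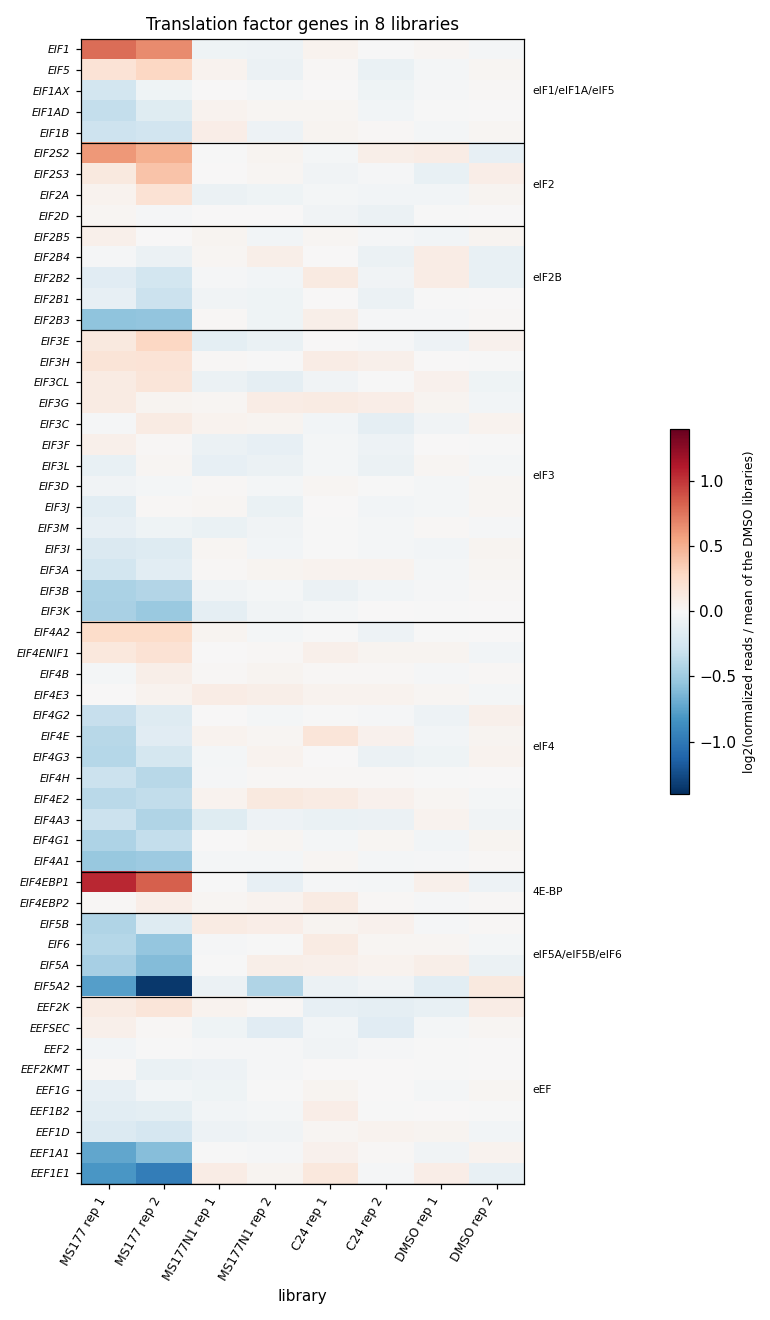
Log2 ratio of normalised reads to the mean of the DMSO libraries (colour, red above and blue below) for 55 translation factor genes with at least 100 mean DMSO reads, 1 row a gene and 1 column a library, by complex. Colour is concentrated in the 2 MS177 columns on the left, deepest for EIF4EBP1, EIF1 and EIF2S2 in red and for EIF5A2, EEF1E1 and EEF1A1 in blue, while the MS177N1, C24 and DMSO columns are pale apart from EIF5A2.

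Of the factors acting at subunit joining and after it, 4 of 5 were lower (background 29.0%) and 0 higher (background 28.9%). Their median log2 fold change was -0.47. EIF5A2, the minor form of the hypusine-bearing factor eIF5A, had 95.4 and 63.6 normalised reads in MS177, 153 and 122 in MS177N1, 153 and 157 in C24, and 146 and 179 in DMSO. All MS177 values were below all others, but the pairs spread widely at this low count. The log2 fold change of -1.04 (SE 0.21, limma adjusted p = 0.000414) was -0.58 on the deposited log2 scale, which compresses low counts.

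EIF5A, chosen for this description after its values were seen, is the main form of that factor and helps ribosomes past proline-rich stretches. It had 19564 and 17739 normalised reads in MS177, 27014 and 28578 in MS177N1, 28368 and 28026 in C24, and 28509 and 25528 in DMSO. The MS177 libraries were lower than all others, with a log2 fold change of -0.53 (SE 0.06, limma adjusted p = 2.00e-06). Its retrocopy EIF5AL1 averaged 16.6 normalised reads in MS177 and 17.7 in DMSO and was not called. EIF6, which keeps the ribosomal subunits apart until the large one is mature, was at -0.47, or -0.27 with the length and GC trend removed. EIF5B, the GTPase that joins the subunits, was at -0.30, or -0.17 without MS177 replicate 1.

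Among the genes with EEF symbols 4 of 9 tested were lower (background 29.0%) and 0 higher (background 28.9%). Their median log2 fold change was -0.08 (0.01 under total-read scaling, with 3 lower and 1 higher). Among all genes tested 3443 were lower and 4761 higher under that scaling. EEF1E1 had 590 and 529 normalised reads in MS177, 1117 and 1068 in MS177N1, 1150 and 1029 in C24, and 1112 and 967 in DMSO. The MS177 values were far below the 6 others, and the log2 fold change was -0.89 (SE 0.09, limma adjusted p = 4.14e-07). Despite its symbol, EEF1E1 encodes AIMP3, a scaffold protein of the aminoacyl-tRNA synthetase complex.

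EEF1A1, which carries aminoacyl-tRNA to the ribosome and was also chosen after its values were seen, had 169331 and 186693 normalised reads in MS177, 280185 and 277873 in MS177N1, 293901 and 285516 in C24, and 272435 and 290275 in DMSO. The MS177 libraries were far below the other 6, and the log2 fold change was -0.66 (SE 0.04, limma adjusted p = 1.81e-08). EEF1A1 has many processed copies, and 6 pseudogene entries in the list summed to a mean of 3536 normalised reads in MS177 and 5581 in DMSO. That was 63.4% of the DMSO mean, beside 63.3% for EEF1A1 itself, so reads of the gene and its copies cannot be told apart here. The guanine exchange subunits that reload eEF1A were mixed, with EEF1D at -0.21 and EEF1B2 at -0.14 called lower and EEF1G at -0.08 not called. The EEF1B2 change was not called, and was above 0, with the length and GC trend removed.

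EEF2, the GTPase that moves the ribosome along by a codon, stayed within a narrow band. It had 119573 and 122961 normalised reads in MS177, 121404 and 122295 in MS177N1, 119503 and 122042 in C24, and 122559 and 123900 in DMSO. The groups overlapped, with a log2 fold change of -0.02 (SE 0.03, limma adjusted p = 0.525). EEF2K, the kinase that inactivates eEF2, was at 0.15, its methyltransferase EEF2KMT at -0.04 and EEFSEC, the selenocysteine factor, at 0.05, and none of these 3 was called.

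EEF1A1 and EEF2 are classic mRNAs with a 5′ terminal pyrimidine tract, the feature through which mTOR and LARP1 govern translation of the protein synthesis machinery. A run of at least 6 C or T letters within the window from 5 bases before to 12 bases after a listed start was therefore counted, on the gene's strand. Of genes with a match, it was found in 2 of 4 called higher, 6 of 23 called lower and 8 of 20 not called. Most genes called higher had no match. The run was in 15.9% of all RefSeq promoters and 21.3% of tested genes with a match. The tract thus occurred in genes of every class. The windows run from 10 bases before the start to 15 after it, 5′ to 3′ on the gene's strand, with capitals for the letters of the run that lie from 5 before to 12 after it, for genes lower (EEF1A1), not called (EEF2, EIF3F) and higher (EIF4A2, EIF2S3), and for EIF4A1 and EIF1, which did not meet the rule. EIF1 has a pyrimidine run just before its start, of which fewer than 6 letters lie in the counted stretch:
EEF1A1 (chr6:73521018-73521042, minus strand): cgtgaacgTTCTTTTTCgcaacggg
EEF2 (chr19:3985449-3985473, minus strand): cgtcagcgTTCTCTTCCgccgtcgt
EIF3F (chr11:7987327-7987351, plus strand): cttccgCCTCCTTCTTTCTCgacaa
EIF4A2 (chr3:186783567-186783591, plus strand): gcgccgctgTCTTTTCagtcgggcg
EIF2S3 (chrX:24054946-24054970, plus strand): gatttCCTTCCTCTTTTggcaacat
EIF4A1 (chr17:7572815-7572839, plus strand): ggcactccgccctagtttctaagga
EIF1 (chr17:41688875-41688899, plus strand): ccgcccctctgccccagtcactgag
EEF1A1 and EEF2 both hold a tract in this window, and their log2 fold changes were -0.66 and -0.02. Translation was not measured, and any part of the tract in these RNA values was not tested. The motifs and windows were chosen after the values were seen, and no test was made of them.

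Set against the related compounds rather than the solvent, MS177 gave similar counts. Against MS177N1, 34 of the 58 genes were called, where 57.4% of all genes tested were. Of these, 11 were higher, against a background of 28.8%, and 23 lower, against a background of 28.6%. Against C24, 34 were called, where 58.1% of all genes tested were, with 10 higher (background 29.1%) and 24 lower (background 29.0%). Under total-read scaling these splits became 15 higher and 19 lower against MS177N1, and 18 higher and 19 lower against C24. Among all genes tested that scaling gave 4675 higher and 3426 lower against MS177N1, and 4796 higher and 3438 lower against C24. These 3 comparisons share the MS177 libraries, and 31 genes were called in the same direction in all of them. That overlap was not counted for all genes tested, so the 31 have no background here. EIF1AX and EIF2B1 were called against DMSO alone, and EIF3H against DMSO and MS177N1. EIF2A was called against MS177N1 (0.19, limma adjusted p = 0.0181) and C24 (0.16, limma adjusted p = 0.0454), EIF3F against MS177N1 (0.14, limma adjusted p = 0.0157), and EEF1G (-0.10, limma adjusted p = 0.0326) and EEF2K (0.26, limma adjusted p = 0.00660) against C24.

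EIF1 had a log2 fold change of 0.79 in MS177 against MS177N1 and 0.70 against C24, and EEF1A1 had -0.65 and -0.70. EIF4A1 had -0.49 against MS177N1 and -0.52 against C24. These sizes were close to those against DMSO.

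At the same dose and time, MS177N1 and C24 moved none of the 58 genes past the threshold. MS177N1 against DMSO gave 0 calls, beside 5 genes (0.0353%) among all tested, and 1 of the 58 had an unadjusted p under 0.05 in limma, EIF3F at -0.10, as had 5.07% of all genes. C24 against DMSO gave 0 calls in limma, beside 13 genes (0.0918%), and 0 of the 58 had an unadjusted p under 0.05, as had 5.38% of all genes. MS177N1 against C24 gave 0 calls in limma, beside 2 genes (0.0141%), and 2 of the 58, EEF1D at -0.10 and EIF3C at 0.12, had an unadjusted p under 0.05, as had 4.48% of all genes. With limma's voom weights the count was also 0 in each of these comparisons.

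The intervals bound how large a missed difference could be. In each of these 3 comparisons the 95% interval lay within 1.25-fold for 54 of the 58 genes, and the exceptions were EIF5A2, EIF4EBP3, EIF5AL1 and EIF3J-AS1, which had few reads. Among the 55 genes with at least 100 mean DMSO reads, log2 fold changes ran from -0.24 to 0.10 for MS177N1 against DMSO, from -0.12 to 0.11 for C24 against DMSO, and from -0.18 to 0.15 for MS177N1 against C24. EIF4EBP1 had intervals of -0.21 to 0.09, -0.17 to 0.14 and -0.20 to 0.11 in these comparisons.

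**Figure D4:**
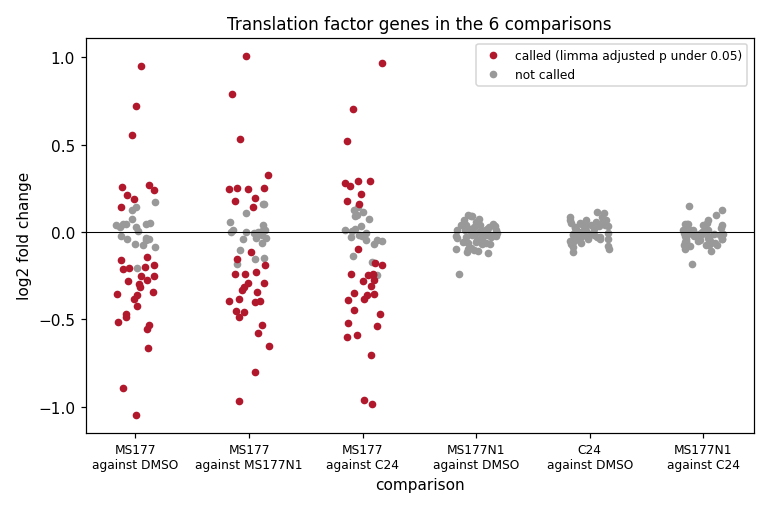
Log2 fold change (vertical axis) of 55 translation factor genes with at least 100 mean DMSO reads in each of the 6 comparisons, 1 point a gene, red where limma's adjusted p was under 0.05. The 3 comparisons with MS177 spread from EIF5A2 or EEF1E1 at the bottom to EIF4EBP1 at the top, and the 3 without it form narrow bands around 0 with no red point.

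Another 46 genes that act on these factors or beside them were counted in the same way. In MS177 against DMSO 9 of them were higher (background 28.9%) and 19 lower (background 29.0%), with a median log2 fold change of -0.09. These shares of all genes tested are the background of each list below too. In the comparisons without MS177, 0 of the 46 were called. The largest change among them was that of PDCD4, which binds eIF4A and blocks its helicase, with 4022 and 4355 normalised reads in MS177, 1843 and 1693 in MS177N1, 1644 and 1569 in C24, and 1836 and 1701 in DMSO. The MS177 libraries were far above the others, with a log2 fold change of 1.24 (SE 0.07, limma adjusted p = 3.16e-10). PDCD4 and EIF4EBP1, which bind eIF4A and eIF4E, were thus both higher, while EIF4A1, EIF4E and EIF4G1 were lower. The set did not all go that way. EIF4A2, the paralog of EIF4A1, was called higher at 0.26, and EIF4EBP2 at 0.05 and EIF4B at 0.03 were not called. EIF4E was at -0.16 without MS177 replicate 1. A link between these changes was not tested.

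On the cap and poly(A) side 5 of 8 genes were higher and 2 lower, and LARP1, the binder of pyrimidine-tract mRNAs, averaged 6397 normalised reads in MS177 and 9079 in DMSO (log2 fold change -0.51). Of the scanning and recycling genes 1 of 10 was higher and 7 lower. DDX3X, a helicase for structured leaders, averaged 4554 in MS177 and 8210 in DMSO (-0.85), and IMPACT, which restrains the eIF2 kinase GCN2, averaged 548 in MS177 and 443 in DMSO (0.30). The IMPACT call was lost without MS177 replicate 2 (0.23, limma adjusted p = 0.0862).

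Release and rescue factors had 1 of 5 genes higher and 3 lower. GSPT2, an eRF3 paralog, averaged 567 normalised reads in MS177 and 431 in DMSO (0.40). It averaged 331 in MS177N1 and 370 in C24, and MS177 was at 0.78 and 0.61 against these. The rescue factor PELO averaged 255 in MS177 and 378 in DMSO (-0.56). With 317 in MS177N1 and 355 in C24, its values against these were -0.31 and -0.47. Among the enzymes that modify eIF5A and eEF2, 0 of 8 were higher and 3 lower. DOHH, which completes hypusine on eIF5A, averaged 1196 in MS177 and 2060 in DMSO (-0.78). DHPS, the other eIF5A enzyme of the list, averaged 1329 in MS177 and 1373 in DMSO (-0.05) and was not called. The upstream kinase genes had 0 of 6 higher and 1 lower, RPS6KB1 at -0.18, a call that was lost without MS177 replicate 1 (-0.13, limma adjusted p = 0.202), under total-read scaling, and in every other omission of a library except those of MS177 replicate 2 and DMSO replicate 1.

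Mitochondrial factors had 1 of 8 higher and 3 lower, with MTIF2 at 0.19 and MTIF3 at -0.54. Neither of these 2 was called against MS177N1 or C24. There MTIF3 was at -0.23 (limma adjusted p = 0.192) and -0.30 (limma adjusted p = 0.0894), and MTIF2 at 0.09 and 0.13. TPT1, a pyrimidine-tract mRNA like EEF1A1, was at 0.13. The MTIF2 and TPT1 calls were both lost without MS177 replicate 2, at 0.14 (limma adjusted p = 0.166) and 0.06 (limma adjusted p = 0.249), and without DMSO replicate 1. The MTIF2 call was also lost without DMSO replicate 2, and the TPT1 call without either MS177N1 library.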

How the data were processed

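Libraries of MM1.S cells were prepared, per the labels' protocols, with a NEBNext Ultra II kit, 1 µg of RNA going into them. STAR 2.4.2, DESeq2 1.38.2 and Salmon 0.1.19 are named, without roles, in the submitters' processing notes, as is the hg19 assembly; whether counting used strand is not given in the sources used here. The deposited values are log2 values normalised by the authors, per the file headers, and their form is that of a variance-stabilising transformation with a shared minimum of 5.967655733 for 0 reads. Inverting it gave whole reads for 130360 of 130360 values within 0.01 reads, and the implied size factors equalled median-of-ratios factors computed anew.

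The reads divided by size factors, plus 1, were log2-transformed before a limma 3.58.1 fit (robust, with a mean trend, statmod 1.5.0, R 4.3.3), with all 4 groups and 8 libraries in 1 fit, so that the 2 libraries of a group share 1 estimate of the spread. A gene was tested if 2 or more libraries held 10 or more of its reads (scaled to the median depth) and its total was 15 or more, with Benjamini-Hochberg adjustment over 14164 genes and a threshold of 0.05. Fold changes are on this log2(value + 1) scale, which understates those of low genes. The fit was tested on simulated data in which few genes changed and the same spread setting held for every gene. Those data differ from the real ones, where 57.9% of genes tested were called against DMSO. A fold shown beside a called gene is the linear form of its log2 value. Depth ranged from 20000665 to 26619099 reads in listed genes; intervals cover the fit's spread between libraries.

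The members and gene lists were chosen with earlier results of these data known. Every member could be named. Values per library were given for the largest called rise and fall of each complex and for the EIF4EBP genes, and pathway genes were the largest called rise and fall of each list. EIF4E, EIF5A, EEF1A1 and EEF2 were added after their values were seen. EIF3J-AS1 overlaps EIF3J in antisense, and EIF3C and EIF3CL, EIF5A and EIF5AL1, EIF2S3 and EIF2S3L, and EEF1A1 and its pseudogenes are near copies, so their values are uncertain. Replicates of a group correlated at 0.985 to 0.988 (Pearson, log2 values of tested genes). Other scalings, filters, the deposited scale, voom, a replicate block, fits on the compared groups only, omission of each library and removal of a trend over transcript length and GC content (GENCODE 29) were tried.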

Additional observations from a re-analysis of the deposited data

How the results depend on the processing

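Under 18 alternative settings, 24 of the 34 genes called in MS177 against DMSO were called in every one and 10 lost the call in at least 1, while 11 of the genes not called were called in none and 13 in at least 1. For all genes tested such overlap between settings was not counted. The share of all genes tested that was called is given in brackets after each count below. The number called in MS177 against DMSO was 35 on the deposited log2 values (58.6%), 35 with voom (58%) and 37 with total-read scaling (57.9%). It was 34 with trimmed mean of M values scaling (57.9%) and 34 without a filter on low counts (51.2%). When the fit held the 2 compared groups only, it was 30 (52.3%). Leaving out 1 library at a time gave 30 to 33 calls against DMSO, 27 to 34 against MS177N1 and 26 to 35 against C24. The share of all genes tested that was called moved in these omissions too, and was lowest where a library of the compared groups was left out. In comparisons without MS177 the count was 0 under every setting run. A trend over transcript length and GC content was removed as an alternative chosen after seeing the data. It gave 37 calls (12 higher and 25 lower), beside 60% of all genes tested, and 31 were shared with the reported calls. Of the 58 genes, 57 had a length and GC value. That setting turned EEF1B2 round, to a log2 fold change of 0.0732 (limma adjusted p = 0.136), and EIF4E3, to -0.178 (limma adjusted p = 0.0232); the cause was not tested. EIF3I lost its call with that setting (-0.02) and with total-read scaling (-0.11). Total-read scaling also brought EEF1D to -0.125, EIF4G2 to -0.166 and EIF1AD to -0.166, and the length and GC setting brought EIF1B to -0.103 and EIF4E to -0.47.

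The replicate numbers are not said to mark a shared culture. Deviations from the group means of same-numbered libraries correlated at -0.0694 to 0.321 over 10251 genes. With the replicate number as a block, 34 genes were called in MS177 against DMSO, all 34 of them shared with the fit without the block. There were 35 against MS177N1, 36 against C24 and 0 in the other comparisons. The shares of all genes tested were 58.6% against DMSO, 58.5% against MS177N1 and 59% against C24. Few reads limit EIF4EBP3, EIF5AL1 and EIF5A2, whose intervals are the widest.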

Other observations

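EIF3J-AS1, the antisense transcript listed beside EIF3J, had 131 and 130 normalised reads in MS177, 120 and 116 in MS177N1, 88.2 and 114 in C24, and 95.8 and 96.1 in DMSO. Its log2 fold change in MS177 against DMSO was 0.44 (limma adjusted p = 0.0514), just outside the threshold, and EIF3J itself was at -0.07. Whether the 2 share reads was not tested.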
